A study of Mus musculus with 4 samples.

Results

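Mural cells are the cells that wrap blood vessels: pericytes on capillaries and small venules, and vascular smooth muscle cells on arterioles and larger vessels. They were selected on the measured UMIs of marker genes in droplet single-cell RNA data from the noses, dissected whole, of mouse embryos (embryonic day 14.5): at least 500 genes detected, at most 10% of UMIs (unique molecular identifiers, 1 per captured transcript) from mitochondrial genes, at least 1 UMI of Pdgfrb, a UMI of at least 2 of 6 mural genes (Rgs5, Kcnj8, Abcc9, Notch3, Higd1b and Myh11), and no UMI of the endothelial gene Cdh5. The rule found 215 cells among the 13739 that passed the same limits on genes and mitochondrial UMIs, with 70 and 38 cells in the control libraries and 46 and 61 in the mutant libraries. The values of those 8 genes chose the cells, so they, and the shares of cells built on them, are given below as a description and were not tested.

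Pericytes and smooth muscle cells share the receptor Pdgfrb, through which PDGF-B from the endothelium draws them to new vessels, and Notch3, through which contact with endothelium promotes their maturation. Pericytes are embedded in the basement membrane of the capillary and carry the subunits of a potassium channel, Kcnj8 and Abcc9, while smooth muscle cells carry the contractile proteins encoded by Acta2, Myh11 and Tagln. In the head many mural cells come from the neural crest, where Sox10 is expressed early. Yap1 and Wwtr1 (the gene of Taz) encode transcriptional co-activators of the Hippo pathway that act through TEAD factors.

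The 4 libraries comprise 2 control and 2 mutant libraries of unsorted cells. The mutants carry the transgene Tg(Sox10-cre)1Wdr, which drives Cre recombinase from Sox10, with floxed Yap and Taz alleles; the series text gives yap as flox/WT and taz as flox/flox, which leaves 1 wild-type Yap allele. The controls are titled WT and labelled C57Bl/6J, but the series text gives them as floxed at both genes with no Cre, and which is right was not settled here. Cells were frozen before loading, and 2 sequencing providers are named but not matched to libraries, so a provider effect cannot be told apart from genotype. The labels name 2 noses per genotype and do not tie a nose to a library, so p-values measure the spread between libraries. No sequence in these data reports which cells had recombined their floxed alleles.

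Total depth ranged from 20170229 to 35887490 UMIs per library, and the summed UMIs of the mural cells from 394393 to 737270. The median mural cell held 9670 and 9987 UMIs in the control libraries and 13132 and 9026 in the mutant libraries, and mitochondrial UMIs made up a median of 2.30% to 3.21%. Any pair of libraries shared 3 to 5 cell barcodes among cells kept and 0 among mural cells. Of the 215 cells, 26 were among the highest doublet scores of their library and 17 held a UMI of Ptprc, Epcam, Sox10, Pecam1 or Kdr.

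Levels below are CPM, a gene's summed mural UMIs scaled to 1e+06 mural UMIs of that library, given in the order control 1, control 2, mutant 1, mutant 2. The rule genes were as follows. Rgs5, a regulator of G-protein signalling that marks pericytes, stood at 865 and 1138 CPM (controls) and 469 and 452 CPM (mutants). Kcnj8 stood at 283 and 177 against 91.6 and 215 CPM, and Abcc9 at 279 and 304 against 196 and 301 CPM. Rgs5 was lower in both mutant libraries with no overlap, while the channel subunits overlapped between groups. Notch3 stood at 195 and 210 against 175 and 170 CPM, and Pdgfrb at 281 and 297 against 170 and 303 CPM. Higd1b, a small mitochondrial protein found in pericytes, stood at 66.5 and 12.7 against 7.15 and 34.7 CPM. Myh11, the smooth muscle myosin heavy chain, stood at 44.8 and 25.4 against 73.0 and 81.4 CPM, higher in both mutant libraries.

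Genes outside the rule give a check on the label. Gucy1a1, a subunit of the nitric oxide receptor of contractile cells, stood at 198, 205, 124 and 208 CPM in mural cells and at 7.00 to 12.4 CPM in mesenchymal cells, here cells with a UMI of Pdgfra and of Col1a1 and none of Cdh5, Ptprc or Epcam (5555 cells). Ndufa4l2 stood at 173 to 326 CPM against 4.01 to 14.4 CPM, and Heyl, a Notch target of mural cells, at 58.7 to 127 CPM against 0.668 to 1.98 CPM. The endothelial genes Pecam1 and Cldn5 lay between 0 and 4.07 CPM in mural cells and between 342 and 795 CPM in the 219 endothelial cells. Other endothelial genes were present at lower levels than in endothelial cells, with Flt1 at 46.8 to 91.3 CPM against 381 to 552 CPM, Esam at 24.3 to 52.0 against 258 to 415 CPM and Emcn at 36.4 to 58.3 against 552 to 664 CPM. Mcam, used as a pericyte gene, was also high in endothelial cells (68.7 to 153 CPM).

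The members were not alike. Of the 215 cells, 83 had exactly 2 of the 6 mural genes, 34 had 3, 62 had 4, 33 had 5 and 3 had all 6, and a further 750 cells with a Pdgfrb UMI had only 1 and lay just outside the rule. Members with exactly 2 carried Col1a1, the main fibrillar collagen of mesenchyme, at 2274, 2710, 2296 and 2920 CPM, against 200, 75.4, 204 and 471 CPM in members with 4 or more. Pdgfra, the receptor of mesenchymal cells, stood at 85.9 to 114 CPM against 2.66 to 15.6 CPM. Cspg4, the NG2 proteoglycan of pericytes, went the other way, at 4.12, 20.3, 22.1 and 17.5 CPM against 79.9, 141, 82.4 and 77.8 CPM. The split used the mural genes, so these are descriptions with no test. By a fixed size (at least 4-fold in every library and at least 50 UMIs), 46 of 6336 genes were higher in the members with exactly 2, Sfrp2, Epha4 and Penk among them, and 17 in those with 4 or more, among them Rgs4, Itga6, Cobll1 and Gucy1a1. The members with 2 mural genes therefore went partly against the label, since they held mesenchymal collagens at the level of the mesenchymal cells (Col1a1 at 2054 to 3243 CPM there, a gene that also chose those cells). They made up 31.4% and 28.9% of the members in the controls and 54.3% and 41.0% in the mutants, with mean shares of 30.2% and 47.7%. Because this share moved with genotype, results below are also given for members with 3 or more mural genes (48, 27, 21 and 36 cells).

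**Figure D1:**
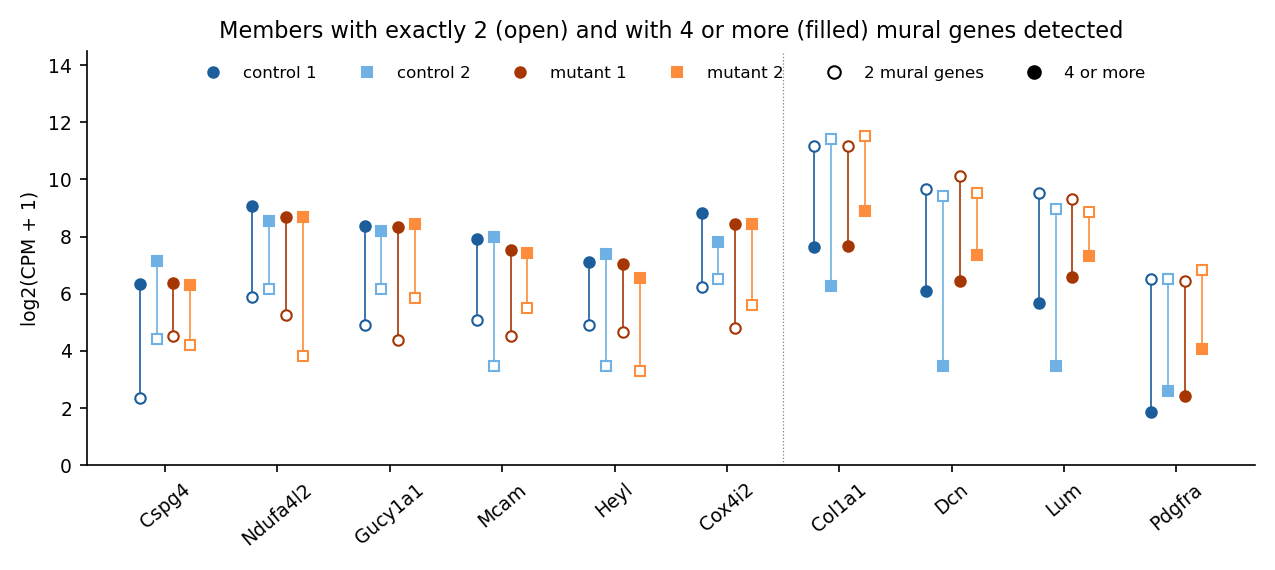
Level of Cspg4, Ndufa4l2, Gucy1a1, Mcam, Heyl and Cox4i2 and of 4 mesenchymal genes, as log2(CPM + 1) on the vertical axis, in members with exactly 2 mural genes detected (open) and with 4 or more (filled). Colours and shapes mark the 4 libraries and lines join the values of 1 library. In every library Col1a1, Dcn, Lum and Pdgfra were higher in the open points and the other plotted genes were higher in the filled points.

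The share of mural cells among all cells was 1.72% (exact 95% interval 1.34 to 2.17) and 1.54% (1.09 to 2.10) in the controls and 1.54% (1.13 to 2.04) and 1.45% (1.11 to 1.86) in the mutants. The mutant mean was 0.132 percentage points lower, and with at least 1000 genes and at most 5% mitochondrial UMIs per cell it was 0.0364 points higher. Membership also depended on depth. After every cell was thinned to 2000 UMIs, only 21, 8, 6 and 19 cells met the rule. These were 0.533%, 0.338%, 0.210% and 0.477% of the cells with that many UMIs, with overlap between groups. Intervals and floors here and below cover counting error only. Per 100 endothelial cells there were 115, 136, 128 and 64.9 mural cells, with mutant 2 apart from the others.

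The members were divided by 2 sets of 3 genes: pericyte genes (Kcnj8, Abcc9 and Vtn) and smooth muscle genes (Acta2, Myh11 and Actg2). A cell was called pericyte-like where at least 2 pericyte genes were detected and more of them than smooth muscle genes, smooth muscle-like in the converse case, and intermediate otherwise. This gave 109 pericyte-like, 23 smooth muscle-like and 83 intermediate cells. The classes are ranges of a score: 37 cells had equal numbers of both, 55 more were classed by a margin of 1 gene, 31 had at least 2 genes of each set and 11 had none.

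The pericyte-like share was 58.6% (exact 95% interval 46.2 to 70.2) in control 1 and 65.8% (48.6 to 80.4) in control 2. It was 28.3% (15.99 to 43.5) in mutant 1 and 49.2% (36.1 to 62.3) in mutant 2. Both mutant libraries were below both controls, by 23.5 percentage points on average. The classes rest partly on genes of the membership rule (Kcnj8, Abcc9 and Myh11), so no test is given. After every cell was thinned to 2000 UMIs the shares were 37.1%, 36.8%, 10.9% and 21.3%. With 3 or more mural genes required, the mean share was 83.0% in controls and 53.4% in mutants. Cells with all 3 pericyte genes and no smooth muscle gene numbered 16 and 11 in the controls and 0 and 5 in the mutants. Vtn is 1 of the genes that define the class and had the deepest fall of the 12 largest falls named below. A rule without Vtn and Acta2, in which pericyte-like means Kcnj8 and Abcc9 with neither Myh11 nor Actg2, gave a difference of 18.6 points, with a mean of 53.5% in controls and 34.9% in mutants, and 3 of its 4 genes belong to the membership rule.

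Smooth muscle-like cells numbered 6, 1, 9 and 7, or 8.57% (3.21 to 17.7), 2.63% (0.0666 to 13.8), 19.6% (9.36 to 33.9) and 11.5% (4.74 to 22.2) of the members. Their mean share was 5.60% in controls and 15.5% in mutants, with no overlap, and on thinned cells it was 2.86% and 8.98% with overlapping libraries. The 1 such cell of control 2 held Acta2 at 903 CPM, but Col1a1 at 11113 and Col1a2 at 8960 CPM. It held no UMI of Rgs5, Gucy1a1 or Mcam, so its values go partly against the name.

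**Figure D2:**
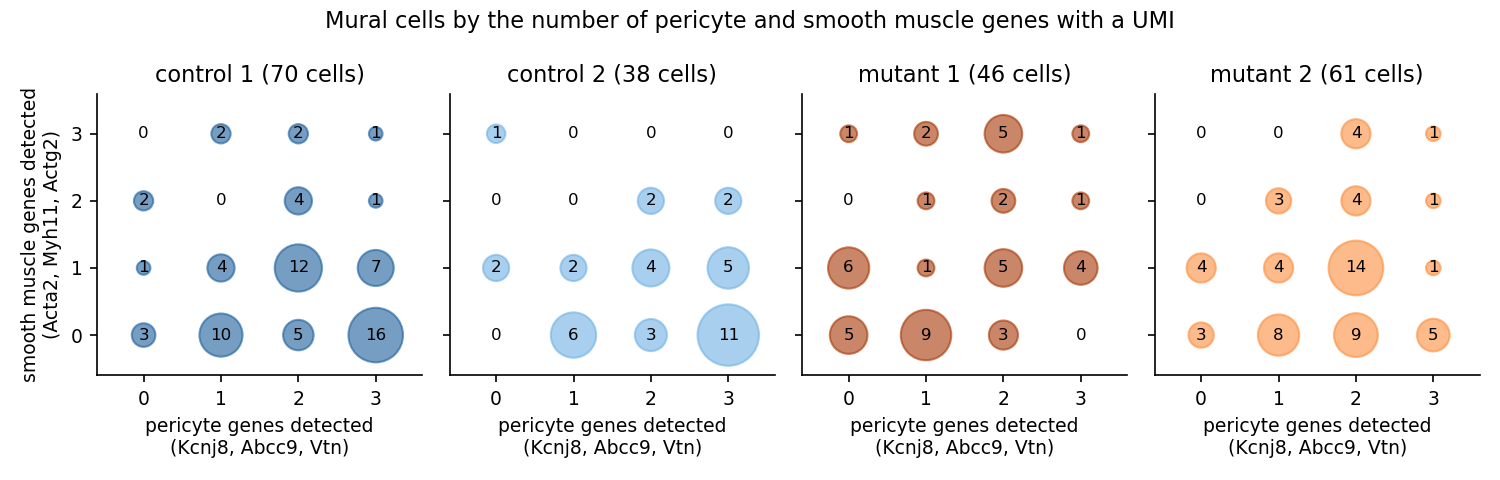
Number of mural cells with 0 to 3 pericyte genes (horizontal axis) and 0 to 3 smooth muscle genes (vertical axis) with a UMI, one panel per library. Circle area is the share of that library's mural cells and the printed number is the count of cells. The lower right corner, pericyte genes only, holds 16 and 11 control cells and 0 and 5 mutant cells.

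**Figure D3:**
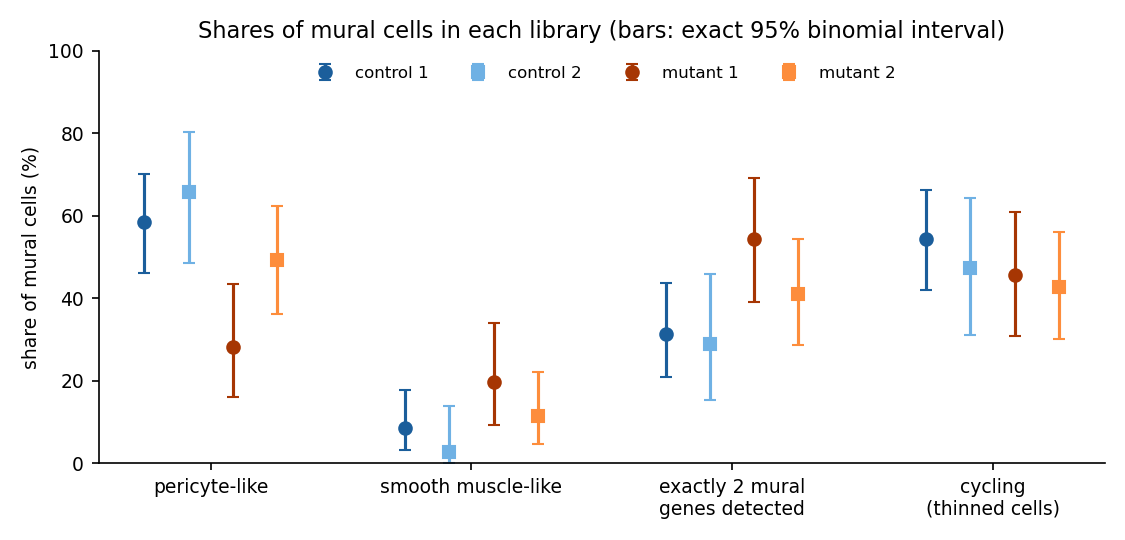
Share of mural cells (%, vertical axis) that were pericyte-like, smooth muscle-like, had exactly 2 mural genes detected, or were cycling after thinning, in each of the 4 libraries. Points are shares and bars are exact 95% binomial intervals of counting error. The pericyte-like share is below both controls in both mutant libraries, and the share with 2 mural genes is above both.

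No gene differed at least 4-fold in the same direction in all 4 libraries between pericyte-like and smooth muscle-like cells (0 of 4766 genes with at least 50 UMIs), a comparison limited by the 1 smooth muscle-like cell of control 2. A wider split gave more cells: 43 members had at least 2 smooth muscle genes and 96 had none. By the same size, 11 of 5164 genes were higher in the former and 0 in the latter. Acta2 and Myh11 were used in the split. Outside it, Tagln, the actin-binding protein transgelin of smooth muscle, stood at 1247, 759, 1504 and 2333 CPM against 45.2, 20.3, 7.74 and 55.7 CPM. Tpm2, smooth muscle tropomyosin, stood at 617 to 912 CPM against 142 to 209 CPM, and Cav1, the coat protein of caveolae, at 66.0 to 207 CPM against 5.08 to 18.6 CPM. The other genes past this size were Kcnab1, Hspb2, Ctnna3, Pdlim1, Tnmd and Flt1. These genes were at least 4-fold higher in the same cells in every library of both genotypes, given as a description with no test.

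Mutant and control mural cells were compared on summed UMIs with edgeR's quasi-likelihood test over 8130 genes. At a Benjamini-Hochberg adjusted p under 0.05, 69 genes changed (0.849% of those tested), 33 higher (0.406%) and 36 lower (0.443%) in the mutants. Genes whose libraries did not overlap made up 24.1% (higher) and 16.9% (lower) of all genes tested, which is the background for the counts of non-overlap below. The median log2 change of all genes was -0.0028. The adjusted p-values below come from this test unless another is named.

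The genes the comparison turns on lie, on mm10 with GENCODE annotation, at chr11:78499091-78502324 (Vtn), chr9:87702800-87731260 (Tbx18), chr6:83512905-83536265 (Actg2) and chr1:72857932-72874884 (Igfbp5). The targeted genes come first. Yap1 stood at 65.1 and 68.5 against 55.8 and 55.4 CPM (log2 change -0.32 ± 0.28 SE, adjusted p = 0.788), and Wwtr1 at 114 and 147 against 124 and 156 CPM (0.06 ± 0.24, adjusted p = 0.976). Neither passed the test. The assay reads the 3-prime end of each transcript and the labels do not give the floxed exons, so these levels do not check the genotype. Of the 30 genes of the list of YAP and TAZ with their TEAD partners and targets, 25 were tested and 0 passed in either direction, with a median log2 change of 0.06. The classical targets Ccn1 (184, 165, 166 and 279 CPM) and Ccn2 (35.3, 17.7, 28.6 and 53.7 CPM) overlapped between groups.

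Pericyte genes included the deepest falls. Of 28 listed genes 21 were tested, and 3 fell (Vtn, Tbx18 and Zic1) and 0 rose, while 12 were lower with no overlap and 2 higher. Vtn, which encodes vitronectin, a matrix protein made by pericytes of the central nervous system, stood at 259 and 434 CPM (controls) and 20.03 and 24.3 CPM (mutants). Vtn fell by 4.00 ± 0.32 on the log2 scale (adjusted p = 6.73e-06) and passed the test in all 14 alternative analyses run. The draw with equal numbers of pericyte-like and of smooth muscle-like cells, given below, was among these and chose its cells partly by Vtn. After thinning every cell to 2000 UMIs, a Vtn UMI was seen in 30% and 44.7% of control mural cells and in 6.52% and 1.64% of mutant mural cells, against 0% and 3.70%, and 0% and 0%, of endothelial cells thinned alike. Vtn fell in members with 3 or more mural genes as well, from 384 and 551 to 48.1 and 40.1 CPM (log2 change -3.40, adjusted p = 5.31e-13). In mesenchymal cells Vtn stood at 19.5 and 25.0 against 0.494 and 1.60 CPM, and the difference between the effects in mural and mesenchymal cells did not pass (0.52, adjusted p = 0.877).

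Tbx18, a T-box transcription factor expressed in pericytes and smooth muscle of many organs, stood at 119 and 216 against 10.0 and 38.1 CPM and fell by 2.87 ± 0.42 (adjusted p = 0.00478). Zic1, a zinc-finger factor of pericytes and meninges, stood at 47.5 and 98.9 against 14.3 and 13.9 CPM and fell by 2.34 ± 0.43 (adjusted p = 0.0151). The other pericyte genes had smaller differences that missed the threshold. Cspg4 stood at 50.2 and 101 against 40.1 and 46.8 CPM, Anpep at 29.8 and 27.9 against 8.58 and 15.6 CPM, and Mcam at 156 and 167 against 75.8 and 121 CPM. Ebf1, an early B-cell factor used by mural cells, overlapped between groups at 1774, 1648, 1246 and 1863 CPM. The median log2 change of the list was -0.64 in all members and -0.13 in those with 3 or more mural genes, where Vtn, Tbx18 and Zic1 fell again and Aspn rose (1.14, adjusted p = 0.0291).

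The list of meningeal and forkhead genes, 17 of 27 tested, had 5 falls and 0 rises. Besides Tbx18 and Zic1 these were Foxd1, Zic4 and Clstn2. Foxd1, a forkhead factor that marks stromal progenitors of pericytes in the kidney, stood at 59.7 and 134 against 5.72 and 24.3 CPM and fell by 2.73 ± 0.49 (adjusted p = 0.015). Clstn2, a calsyntenin of the cell surface, stood at 152 and 188 against 48.6 and 24.3 CPM and fell by 2.22 ± 0.31 (adjusted p = 0.00405). Zic4 stood at 23.1 and 45.6 against 2.86 and 5.20 CPM and missed the threshold without control 2 (adjusted p = 0.586). In all 3 genes both mutant libraries lay below both controls. Foxc1 and Foxf2, forkhead factors needed for brain pericytes, were lower with no overlap and did not pass (44.8 and 78.6 against 31.5 and 38.1 CPM for Foxc1, 20.3 and 20.3 against 4.29 and 8.66 CPM for Foxf2). Aldh1a2, which makes retinoic acid in meninges, was at 17.6 and 35.5 against 84.4 and 60.6 CPM (adjusted p = 0.0736), and it rose in members with 3 or more mural genes (1.89, adjusted p = 0.0246).

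Among smooth muscle contractile genes, 23 of 29 were tested in all members and 1 rose, Actg2, the enteric form of smooth muscle actin, from 25.8 and 7.61 to 102 and 84.9 CPM (log2 change 2.24 ± 0.38, adjusted p = 0.00995). Its mutant UMIs came from 22 cells and 120 UMIs, against 11 cells and 22 UMIs in controls. An Actg2 UMI was seen in 11.4% and 7.89% of control and 30.4% and 13.1% of mutant mural cells. On cells thinned to 2000 UMIs the Actg2 shares overlapped between groups (7.14% and 0% against 13.04% and 4.92%). Thinned Tagln shares overlapped as well (25.7% and 26.3% against 23.9% and 31.1%). Thinned Acta2 shares did not overlap (31.4% and 34.2% against 41.3% and 41.0%). The median log2 change of the list was 0.04. Acta2 stood at 967 and 532 against 982 and 1516 CPM (0.65 ± 0.26, adjusted p = 0.32) and Tagln at 399 and 307 against 508 and 703 CPM (0.70 ± 0.22, adjusted p = 0.165).

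In members with 3 or more mural genes more of the list passed the test. Myh11, a contractile gene, is 1 of the 6 genes counted for this set and for the later draw by mural genes. A Myh11 UMI was seen in 12.9% and 15.8% of all control members and in 32.6% and 21.3% of all mutant members. Mutant cells could therefore enter the set more often through a contractile gene, and the part of this in the rises was not tested. In this set 5395 genes were tested, of which 56 rose (1.04%) and 63 fell (1.17%). Of the contractile list 18 were tested, 6 rose and 0 fell, 11 were higher with no overlap and 0 lower, and the median log2 change was 0.38. Over the 5395 genes, 20.1% were higher and 18.2% lower with no overlap. In the same members the cell cycle list had 11 of 23 higher with no overlap and the dissociation stress list 14 of 22. Acta2 stood at 1230 and 632 against 2290 and 2452 CPM (1.32, adjusted p = 5.99e-06), and Tagln at 514 and 399 against 1154 and 1110 CPM (1.29, adjusted p = 2.42e-05). Actg2 stood at 32.4 and 6.76 against 240 and 138 CPM (3.05, adjusted p = 9.19e-08). Myl9, the regulatory light chain (506 and 527 against 979 and 803 CPM), Tpm2 (378 and 297 against 649 and 571 CPM) and Cav1 (46.5 and 27.0 against 158 and 66.0 CPM) also rose, with adjusted p of 0.0313, 0.0317 and 0.0195. In each of these 6 genes both mutant libraries lay above both controls. Drawing equal numbers of members with 2, 3, and 4 or more mural genes from every library, an analysis chosen after seeing the data in which 0.835% of genes rose, gave a rise of Acta2 (1.26, adjusted p = 0.00286), Tagln (1.08, adjusted p = 0.00951) and Actg2 (3.02, adjusted p = 0.000183). Another draw took equal numbers of pericyte-like and of smooth muscle-like cells from every library (14 cells each). Mutant 1 held only 13 pericyte-like cells and control 2 only 1 smooth muscle-like cell, the collagen-rich one described above, which limited the draw. In it 2987 genes were tested and 13 passed, so a miss there says little. Acta2 (log2 change 0.84) and Vtn (-3.06) help to define the classes, so their values in this draw are a description. Tbx18 (-2.40, adjusted p = 0.083), Zic1 (-2.79, adjusted p = 0.11) and Clstn2 (-1.76, adjusted p = 0.152) did not pass. Nor did Lamc3 (adjusted p = 0.249), Col18a1 (0.206), Postn (0.156), Fbln2 (0.597), Igfbp5 (0.131), Hist1h2ap (0.0589), Btg2 (0.347) or Fabp7 (0.0849). Fewer pericyte-like cells and less pericyte RNA per cell cannot be told apart in these sums, and the share of smooth muscle-like members given above moved in the same direction as the contractile genes. Within pericyte-like cells Tagln overlapped between groups (200, 344, 703 and 201 CPM).

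**Figure D4:**
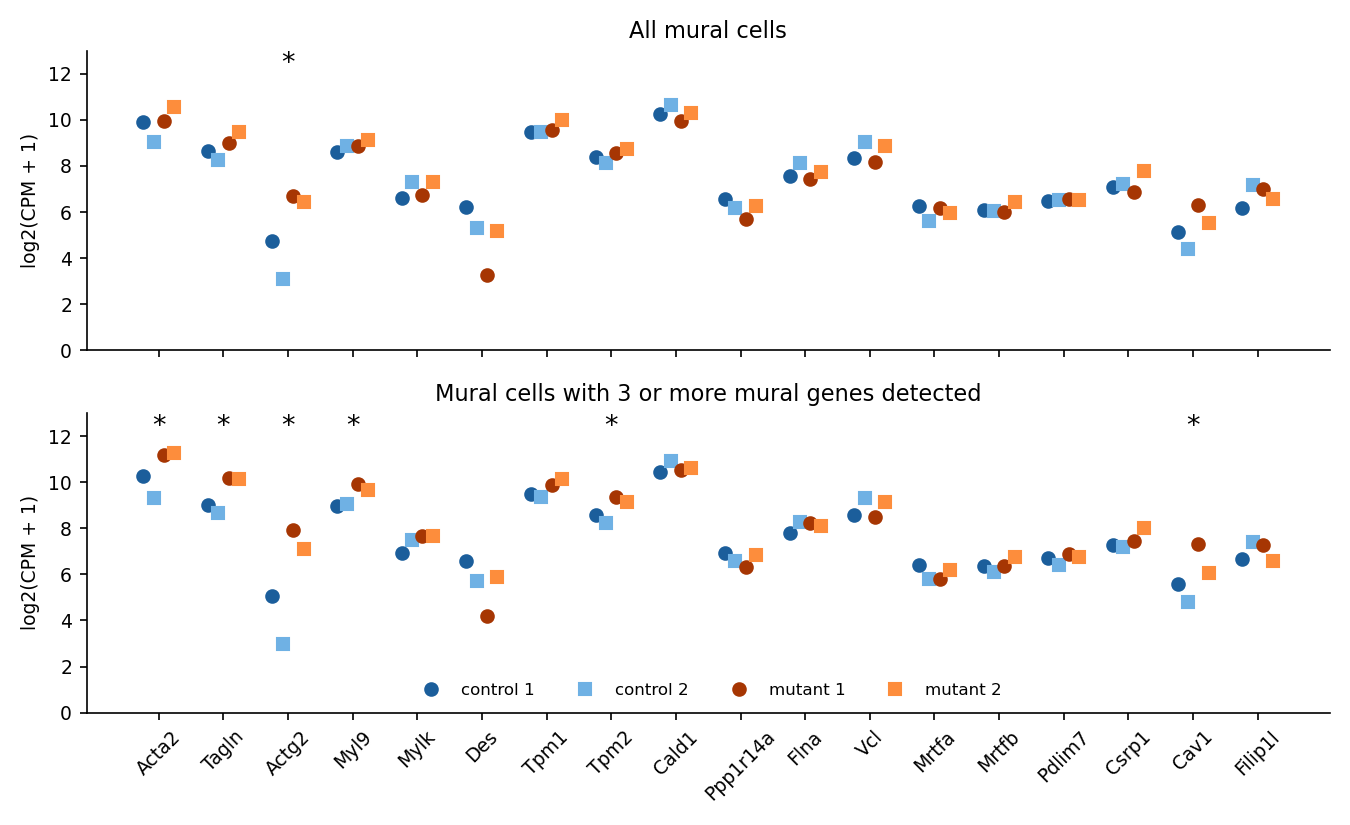
Level of the contractile genes tested in both sets, as log2(CPM + 1) on the vertical axis, in all mural cells (top) and in those with 3 or more mural genes detected (bottom), 1 point per library. An asterisk marks an adjusted p under 0.05. Only Actg2 is marked in all members, and 6 genes (Acta2, Tagln, Actg2, Myl9, Tpm2 and Cav1) are marked below.

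Promoter sequence is shown for a contractile gene, for the pericyte gene with the deepest fall, for a transcription factor that fell, and for the growth-factor-binding gene Igfbp5 that rose. The windows are the 250 bases before the transcription start in RefSeq on GRCm38.p6, 5′ to 3′ on the gene's strand, at chr19:34255374-34255623 (minus strand) for Acta2, chr11:78498870-78499119 (plus) for Vtn, chr9:87731261-87731510 (minus) for Tbx18 and chr1:72874866-72875115 (minus) for Igfbp5. Capitals mark the letters CATTCC, the core read by TEAD factors, on either strand, and CArG boxes, the motif of serum response factor, with at most 1 other base on either strand; the motifs do not overlap here.
Acta2: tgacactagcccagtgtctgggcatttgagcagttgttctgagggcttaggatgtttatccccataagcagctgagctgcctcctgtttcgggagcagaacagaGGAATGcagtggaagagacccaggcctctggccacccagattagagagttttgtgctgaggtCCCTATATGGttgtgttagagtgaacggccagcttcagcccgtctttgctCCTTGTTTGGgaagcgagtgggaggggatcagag
Vtn: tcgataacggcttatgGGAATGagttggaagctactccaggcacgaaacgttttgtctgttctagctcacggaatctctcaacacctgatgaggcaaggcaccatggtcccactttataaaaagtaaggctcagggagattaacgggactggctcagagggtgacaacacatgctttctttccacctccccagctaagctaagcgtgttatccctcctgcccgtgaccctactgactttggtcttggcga
Tbx18: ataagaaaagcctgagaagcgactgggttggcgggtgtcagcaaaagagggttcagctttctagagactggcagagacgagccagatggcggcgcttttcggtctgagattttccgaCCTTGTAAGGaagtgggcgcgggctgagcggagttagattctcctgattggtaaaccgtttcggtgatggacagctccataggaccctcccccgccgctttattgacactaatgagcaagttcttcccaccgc
Igfbp5: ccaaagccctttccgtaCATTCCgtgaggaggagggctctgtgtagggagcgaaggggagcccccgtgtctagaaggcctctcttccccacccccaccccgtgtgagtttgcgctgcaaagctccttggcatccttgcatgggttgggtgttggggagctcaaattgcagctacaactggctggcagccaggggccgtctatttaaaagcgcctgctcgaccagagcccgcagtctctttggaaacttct

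Acta2 held a CATTCC core on the other strand (GGAATG) 146 bases before its start and CArG-like boxes 84 and 34 bases before it. Vtn held a core 234 bases before its start and no CArG-like box, Tbx18 a CArG-like box 133 bases before its start and no core, and Igfbp5 a core 233 bases before its start. Over all 32851 windows of the same length, 12.6% held CATTCC on either strand, 1.47% an exact CArG box and 8.59% one with at most 1 other base. Of the genes that rose and had a window, 4 of 22 held CATTCC, and of those that fell 4 of 27, against 790 of 6467 genes tested (12.2%). A CArG-like box was in 1 of 22 that rose and 1 of 27 that fell, against 574 of the genes tested (8.88%). A match is a description of the letters and not evidence of binding. Of 13 genes looked for, 8 had a window, and none was found for Tagln, Myh11 or Actg2. The contractile gene Cnn1, Foxd1, which fell, and Barx1, which rose, had windows that held neither motif. Col18a1 held CATTCC cores 104 and 54 bases before a start and neither motif before another start.

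Basement membrane genes, which pericytes and endothelium build together, had 2 falls and 0 rises among 17 of 21 tested, and 10 were lower with no overlap against 2 higher, with a median log2 change of -0.66. Lamc3, a laminin gamma chain, stood at 40.7 and 91.3 against 7.15 and 6.93 CPM and fell by 3.16 ± 0.51 (adjusted p = 0.00635). Col18a1, whose collagen yields endostatin, stood at 73.2 and 88.7 against 8.58 and 22.5 CPM and fell by 2.46 ± 0.39 (adjusted p = 0.00576). The main vascular collagens were lower and missed the threshold: Col4a1 stood at 1123 and 1364 against 461 and 962 CPM (adjusted p = 0.141) and Col4a2 at 652 and 776 against 336 and 508 CPM (adjusted p = 0.0903). In members with 3 or more mural genes Lamc1, the common gamma chain, fell too, from 243 and 419 to 82.4 and 169 CPM (log2 change -1.36, adjusted p = 0.00206).

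Fibroblast matrix genes lay on the other side. All 27 were tested, 3 rose and 0 fell, 21 were higher with no overlap and 0 lower, and the median log2 change was 0.61. Postn, periostin of the collagen matrix, stood at 155 and 162 against 328 and 362 CPM and rose by 1.06 ± 0.21 (adjusted p = 0.0217). Fbln2, fibulin of elastic fibres, stood at 51.5 and 35.5 against 146 and 102 CPM, and Mfap5, a microfibril protein, at 6.78 and 2.54 against 54.4 and 38.1 CPM (3.05 ± 0.53, adjusted p = 0.0115). The 60 mutant UMIs of Mfap5 came from 8 cells, 1 of which held 19. Postn missed the threshold without control 1 (adjusted p = 0.0586), Fbln2 without control 2 (0.0543) and without mutant 1 (0.0996), and Mfap5 without mutant 1 (0.0644). The members with 2 mural genes, which carry these collagens, were more frequent in the mutants (mean 47.7% against 30.2%), and both ways of holding that share are given. With equal numbers of members with 2, 3, and 4 or more mural genes 6 of the list rose, 0 fell and the median was 0.60. With 3 or more mural genes 23 were tested, 3 rose (Postn, Fbn1 and Col14a1) and 0 fell, 10 were higher with no overlap, and the median was 0.33.

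Among insulin-like growth factor and imprinted growth genes 19 of 20 were tested, 1 rose and 0 fell, and 13 were higher with no overlap. Igfbp5, which binds insulin-like growth factors in the matrix, stood at 161 and 167 against 735 and 395 CPM and rose by 1.74 ± 0.28 (adjusted p = 0.00576). Of its 742 mutant UMIs 1 cell held 199, and on thinned cells it was detected in 18.6% and 13.2% of control against 32.6% and 36.1% of mutant mural cells, with 5.00%, 3.70%, 0% and 11.1% of endothelial cells. Dlk1, an imprinted inhibitor of differentiation of the Notch ligand family, stood at 909 and 649 against 1205 and 1225 CPM and missed the threshold (adjusted p = 0.248). With 3 or more mural genes 3 of this list rose: Igfbp5, Dlk1 (851 and 690 against 1830 and 1617 CPM, log2 change 1.15, adjusted p = 5.52e-05) and H19 (243 and 186 against 391 and 419 CPM, adjusted p = 0.0313).

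Signalling lists gave few calls. Of PDGF genes 4 of 6 were tested, of Notch genes 10 of 17, of TGF-beta and BMP genes 24 of 30 and of angiopoietin and vessel genes 15 of 21, and 0 passed in any of them (median log2 changes 0.62, -0.32, 0.27 and 0.12). Hes1, a Notch target, stood at 170 and 322 against 122 and 121 CPM (adjusted p = 0.0963), and Heyl at 85.5 and 127 against 58.7 and 58.9 CPM (adjusted p = 0.196). Angpt1, the ligand through which mural cells stabilise endothelium, overlapped at 73.2, 76.1, 58.7 and 114 CPM. Pdgfa rose with 3 or more mural genes, from 60.7 and 40.6 to 117 and 135 CPM (log2 change 1.25, adjusted p = 0.0317), as did Id4, a BMP target (16.2 and 0 against 65.2 and 48.7 CPM, adjusted p = 0.0146).

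Of the 12 largest rises with at least 50 UMIs, several rested on few cells. Trpm5, a cation channel of chemosensory cells, had 2 and 0 control UMIs against 46 and 11 mutant UMIs, the latter in 3 cells and 1 cell, 24 of the 57 in 1 cell (ratio 25.3, counting interval 6.68 to 214). Mgat4c, a glycosyltransferase, had 1 UMI in controls and 55 in 15 mutant cells (ratio 48.8, 8.40 to 1961), and Csmd1 had 6 UMIs in 2 control cells and 107 in 12 mutant cells. Spint2, an epithelial protease inhibitor, had 44 of its 85 mutant UMIs in 1 cell, and its adjusted p of 0.0477 was 0.674 without mutant 1. In mutant 1 a cell with 70441 of the library's 698895 mural UMIs held 194 of the 253 epithelial marker UMIs of that library's members. Its UMIs are part of every mutant 1 level given for all members. Epithelial markers summed to 13.6, 7.61, 362 and 10.4 CPM. Without the 17 members that held a UMI of another cell type Spint2 did not pass (2.07, adjusted p = 0.0879), while Trpm5 (4.50, adjusted p = 0.00345), Mgat4c (5.09, adjusted p = 0.000918) and Csmd1 (3.38, adjusted p = 0.0012) did.

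Other large rises spread over more cells. Barx1, a homeobox factor of facial mesenchyme, had 20 UMIs in 10 control cells and 145 in 30 mutant cells (21.7 and 10.1 against 172 and 43.3 CPM, adjusted p = 0.0362), and missed the threshold without mutant 1 (log2 change 1.23, adjusted p = 0.378). Shox2, a homeobox factor of the palate, stood at 10.9 and 2.54 against 45.8 and 38.1 CPM (adjusted p = 0.0402). Shox2 missed the threshold without mutant 1 (adjusted p = 0.123), with doublets removed (0.0519), with stricter cells (0.0742) and with 3 or more mural genes (0.0847), at log2 changes of 2.18 to 2.77. Sostdc1, a secreted BMP and Wnt antagonist, stood at 24.4 and 7.61 against 215 and 79.7 CPM (adjusted p = 0.00722). In mesenchymal cells these 3 genes stood at 59.5 and 39.6 against 73.9 and 42.9, 89.1 and 58.5 against 65.9 and 70.8, and 182 and 121 against 274 and 217 CPM. In control mural cells all 3 were below their level in mesenchymal cells. Hist1h2ap, a replication-dependent histone, stood at 71.9 and 91.3 against 226 and 560 CPM (2.21 ± 0.34, adjusted p = 0.0049), and in mesenchymal cells at 103, 156, 146 and 455 CPM, where mutant 2 was also high. Lrp1b and C130073E24Rik complete the 12 with Actg2 and Mfap5 (adjusted p = 0.0212 for both).

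Other large falls, besides Vtn, Tbx18, Foxd1, Zic1, Lamc3 and Col18a1, included Pla2g6, Nmnat2, Apold1 and Ecscr. Apold1, an immediate early gene of vessels, stood at 47.5 and 137 against 5.72 and 17.3 CPM, with both mutant libraries below both controls. Pla2g6 stood at 28.5 and 109 against 5.72 and 3.46 CPM, but 39 of its 64 control UMIs were in 1 cell, and it did not pass without control 2 (adjusted p = 0.223). Nmnat2, an enzyme of NAD synthesis, had 46 UMIs in 19 control cells and 6 in 5 mutant cells. Grm3, a metabotropic glutamate receptor singled out after its values were seen, had 25 and 22 control UMIs against 0 and 0 mutant UMIs, at least 17.7-fold lower against a floor of 3 counts over the group. Ecscr, counted among endothelial markers, stood at 46.1 and 40.6 against 5.72 and 10.4 CPM; endothelial markers summed to 305, 304, 222 and 232 CPM in mural cells, with Tie1 and Sox17 at 0. Ecscr passed without the 17 members that held a UMI of another cell type (-2.46, adjusted p = 0.00689), and not without control 1 (adjusted p = 0.0686).

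**Figure D5:**
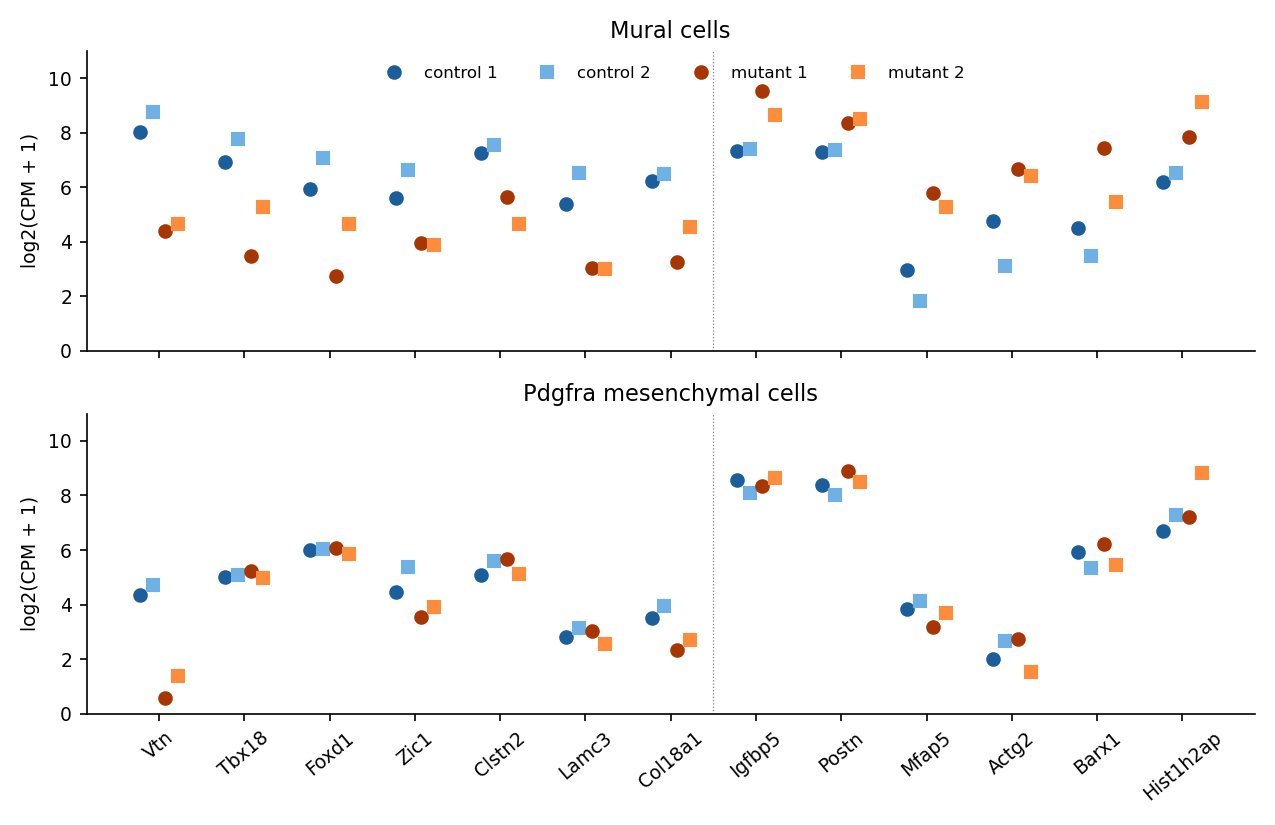
Level of 7 genes that fell and 6 that rose in mural cells, as log2(CPM + 1) on the vertical axis, in mural cells (top) and in Pdgfra mesenchymal cells (bottom), 1 point per library. In mural cells the control and mutant points of each gene do not overlap. In mesenchymal cells Vtn, Col18a1 and Zic1 are also lower in both mutant libraries, while the libraries of Tbx18, Foxd1 and Clstn2 overlap.

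Pericyte-like cells alone (41, 25, 13 and 30) gave a narrower view. Of 4761 genes tested, 33 changed (0.693%), 24 higher (0.504%) and 9 lower (0.189%), and 21 of the 33 were among the 69 of all members. The genes that define the class, Vtn included, were not tested there. A Vtn UMI was seen in a mean of 48.9% of all control members and 13.1% of all mutant members. Control cells could therefore enter the class more often through Vtn. How much this contributed to each change was not tested. Under the rule without Vtn and Acta2 given above, 4321 genes were tested and 28 passed, 27 of them among the 33. That rule still rests on Kcnj8 and Abcc9. Tbx18 (184 and 303 against 17.2 and 68.3 CPM) and Foxd1 (81.1 and 144 against 5.72 and 20.1 CPM) fell within this class as well, as did Fabp7, a fatty acid binding protein of glia and of some pericytes (126 and 229 against 22.9 and 36.1 CPM). With doublets removed 12 genes passed, 11 higher and 1 lower, and Tbx18 (-2.47, adjusted p = 0.0529), Foxd1 (-2.71, adjusted p = 0.119) and Fabp7 (-2.43, adjusted p = 0.0853) no longer did. Of the rises named next, Igfbp5, Dlk1, Mgp, Mfap5 and Ebf3 passed there and Igf1, Postn, Fbn1, Col14a1, Osr1 and Eya4 did not. With another normalisation (RLE size factors) Igfbp5, Dlk1, Mgp, Mfap5, Col14a1, Eya4 and Fabp7 passed. Ebf3, Igf1, Postn, Fbn1, Osr1, Tbx18 and Foxd1 then missed, with adjusted p of 0.0506 to 0.053. Grm3 had 23 and 22 UMIs in the control libraries and 0 and 0 in the mutants, and Nmnat2 had 23 and 17 against 0 and 0. Igfbp5 rose from 59.6 and 48.0 to 657 and 542 CPM (log2 change 3.42 ± 0.31, adjusted p = 0.000365). Dlk1 (825 and 598 against 1532 and 2120 CPM, adjusted p = 0.0305), Mgp, an inhibitor of calcification (272 and 170 against 657 and 1024 CPM, adjusted p = 0.03), and Igf1 (23.8 and 22.2 against 97.2 and 100.4 CPM, adjusted p = 0.048) rose too. Of 25 fibroblast matrix genes tested, 4 rose (Postn, Fbn1, Col14a1 and Mfap5). Osr1, Ebf3 and Eya4, transcription regulators of mesenchyme, were among the other rises (16.7 and 11.1 against 80.0 and 80.3 CPM for Osr1). Smooth muscle-like cells were too few for a test in any library.

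Cell cycle genes gave no call. After thinning to 2000 UMIs, at least 2 of 24 cell cycle genes were detected in 54.3%, 47.4%, 45.7% and 42.6% of mural cells (mean 50.8% against 44.1%, exact two-sided permutation p = 0.3333), and in 29.5% to 32.5% of mesenchymal cells. Without thinning the shares were 75.7%, 71.1%, 82.6% and 59.0% (exact permutation p = 1.0). Of the cell cycle list 23 of 24 were tested and 0 passed. Of 23 dissociation stress genes tested 1 rose, Btg2 (129 and 132 against 226 and 331 CPM, adjusted p = 0.0479), and 0 fell. With no overlap 10 of the 23 were higher (43.5%) and 1 lower (4.35%), against 24.1% and 16.9% of all genes tested. With 3 or more mural genes Hspa1b rose as well (adjusted p = 0.0332). Immune markers summed to 28.5, 20.3, 18.6 and 262 CPM, with 103 of the 151 UMIs of mutant 2 in 1 cell, and skeletal muscle markers to 14.3 to 31.2 CPM with Myod1, Myog, Myf5 and Mymk at 0. Neuronal markers summed to 315, 50.7, 152 and 142 CPM, cartilage and bone markers to 212, 114, 416 and 196 CPM, glial and neural crest markers to 84.1, 200.3, 58.7 and 53.7 CPM with Foxd3 at 0, and red blood cell markers to 71.9, 5.07, 4.29 and 0 CPM. The part of these in the results was not tested beyond leaving out the 17 members with a UMI of another type.

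The mutant effect in mural cells was then tested against that in mesenchymal cells of the same libraries. Of 14071 genes, 7 passed (0.0497%), 2 with the effect in mural cells higher (0.0142%) and 5 with it lower (0.0355%). The 5 were Tbx18, Clstn2, Pdlim2, Ndst3 and Arhgap42. Tbx18 in mesenchymal cells stood at 31.3 and 33.4 against 36.1 and 30.3 CPM, and the difference of effects was -2.85 ± 0.45 (adjusted p = 0.0465; 0.0605 without control 2). Clstn2 there stood at 32.6 and 47.8 against 50.4 and 33.8 CPM (-2.32 ± 0.28, adjusted p = 0.0135). Pdlim2, a PDZ and LIM protein of the actin cytoskeleton, stood at 122 and 104 against 31.5 and 26.0 CPM in mural cells and 31.3 and 23.7 against 31.7 and 31.0 CPM in mesenchymal cells (-2.17 ± 0.30, adjusted p = 0.0239). In these 3 the mesenchymal libraries overlapped while the mural libraries did not. Col1a2 went the other way: 1107 and 958 against 1677 and 1691 CPM in mural cells, 2939 and 2298 against 2111 and 2465 CPM in mesenchymal cells (0.89 ± 0.11, adjusted p = 0.0135). With 3 or more mural genes Col1a2 overlapped between groups in mural cells (653 and 477 against 457 and 889 CPM) and the difference did not pass (0.39, adjusted p = 0.37). The difference for Vtn, Actg2 and Igfbp5 did not pass (adjusted p = 0.877, 0.322 and 0.0726).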

How the data were processed

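Each of the 4 libraries was deposited by the authors as a matrix of raw UMI counts per gene and cell barcode. Per the file headers the matrices came from Cell Ranger 8.0.1, while the submitters' processing notes name Cell Ranger 4, Seurat 4.3.0 and mm10; the reads counted were of the 3-prime end. Members, lists and tests were chosen with earlier results of these data known. Barcodes below 500 genes or above 10% mitochondrial UMIs were dropped, leaving 4 sets of cells (4075, 2474, 2995 and 4195). Mural counts were summed per library and tested with edgeR 4.0.16 in R 4.3.3 (TMM, quasi-likelihood F-test, genes filtered on low counts, Benjamini-Hochberg adjustment over all genes tested). Rule genes were left out of the test. DESeq2 1.42.0 and other settings were alternatives. Shares of cycling cells were compared by exact permutation with scipy 1.17.1, whose smallest p is 0.3333. Scrublet in scanpy 1.11.5 called 1, 3, 0 and 1 doublets automatically, so the highest scores at 0.8% per 1000 barcodes (455 cells) were removed as an alternative. The scripts were tested on simulated data. Named genes were the 12 largest rises and falls past the threshold with at least 50 UMIs and list genes past it; Grm3, Eif3l, Polr2f and genes given only in the pericyte-like or 3-gene sets were chosen after their values were seen. The gene lists are not independent evidence. Some genes that met the rule are not reported here.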

Additional observations from a re-analysis of the deposited data

Results flagged for a closer look

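The mutant effect differed between mural cells and Pdgfra mesenchymal cells in 7 genes by edgeR's test of the difference, each given as the effect in mural cells minus that in mesenchymal cells on the log2 scale. The difference was 0.888 for Col1a2, -2.3225 for Clstn2, -2.1673 for Pdlim2 and -2.8538 for Tbx18. Ndst3, a heparan sulfate enzyme, differed by -2.7181 (adjusted p = 0.0465), at 85.5 and 117 against 17.2 and 50.2 CPM in mural cells and 33.2 and 40.4 against 91.4 and 65.1 CPM in mesenchymal cells. Arhgap42 differed by -1.3869 (adjusted p = 0.0465), at 266 and 368 against 119 and 154 CPM in mural cells and 104 and 105 against 120 and 117 CPM in mesenchymal cells. Mgat4c differed by 5.3732 (adjusted p = 0.0465), with 0 and 1 control UMIs in mural cells and 48.6 and 36.4 CPM in the mutants. In mesenchymal cells Mgat4c stood at 52.6 and 33.2 against 45.9 and 57.8 CPM. Of 10 alternative analyses, Clstn2, Pdlim2 and Ndst3 passed in all 10, Col1a2, Tbx18 and Arhgap42 in 9, and Mgat4c in 7. Col1a2 missed with 3 or more mural genes (0.39, adjusted p = 0.37). Mgat4c missed in that set as well, where its difference was 1.04. It also missed with DESeq2 (5.25, Wald test adjusted p = 0.0685) and without control 1 (3.46).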

How the results depend on the processing

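The 69 genes changed in mural cells were 15 with DESeq2, 336 with no filter, 43 with stricter cells, 119 with at least 3 mural genes, 13 with equal makeup of the subclasses and 151 with other cell types removed; leaving out 1 library gave 121 to 337. The 33 genes of pericyte-like cells were 19 with DESeq2, 21 with RLE size factors, 195 with no filter and 12 with doublets removed, and 47 to 153 without 1 library. The 7 unequal effects were 15 with DESeq2, 231 with no filter, 66 with doublets removed, 37 with stricter cells and 121 with at least 3 mural genes, and 12 to 279 without 1 library. Of the 15 genes that passed with DESeq2 in mural cells, 11 were among the 69, so most of the 69 rest on edgeR's test alone of these 2. The adjusted p-values given above for mural genes are those of edgeR. Counts larger with a library left out rest on a fit in which the lone library is assumed to vary like the others. With the replicate number as a block there were 230 genes in mural and 221 in pericyte-like cells; the numbers are only shared (r = 0.1023 over 8137 genes between same-numbered libraries) and no label pairs them. The mural share difference of -0.1319 points was 0.0364 with stricter cells and -0.0921 with cells thinned to 2000 UMIs. The cycling difference of -6.6895 points was -2.5709 without thinning. Without 1 library the mural share difference ran from -0.2228 to -0.041 and the pericyte-like share difference from -33.92 to -13.00 points. The log2 change of Wwtr1, 0.0574, ran from -0.1394 (without control 1) to 0.2251 (without control 2) over the libraries left out, with -0.0832 without mutant 2, and was -0.2557 with at least 3 mural genes. Over the 34 named genes, 360 values stayed on the same side of the threshold, 47 lost it, 4 gained it and 3 were reversed in sign. Fits of smooth muscle-like cells and the pericyte-like fit with at least 3 mural genes (9 cells in mutant 1) were not run for want of cells (fewer than 10 in a library). The replicate block in the test of unequal effects was not run either. The cause of these changes was not tested.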

Other observations

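A pair of genes next to Sox10 stood higher in mutant libraries in each cell set measured, chosen after their values were seen. Eif3l (chr15:79075179-79094405), a translation initiation factor subunit, rose in mural cells from 100.4 and 86.2 to 220 and 199 CPM (log2 change 1.09 ± 0.23, edgeR adjusted p = 0.0343). It stood at 84.1 and 83.7 against 169 and 180 CPM in mesenchymal cells and at 91.7 and 113 against 200 and 213 CPM in endothelial cells. Polr2f (chr15:79141009-79151774), an RNA polymerase subunit, stood at 227 and 127 against 373 and 321 CPM in mural cells (adjusted p = 0.121), and at 186 and 180 against 343 and 322 CPM in mesenchymal cells. Sox10 itself lies at chr15:79154908-79165240. The difference between the effects in mural and mesenchymal cells was 0.08 for Eif3l (adjusted p = 0.981).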
